A study of Mus musculus with 12 samples.

Results

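Described here are the genes of glycolysis, lactate handling, pyruvate entry and the pentose phosphate pathway in mouse 4T1 mammary tumours from animals given curcumin, swimming, both or neither. The members are a fixed list of 36 gene symbols, found by name in the deposited gene table. They matched 37 of its 21899 genes, because Aldoa is listed a second time as a short neighbouring model. All 37 passed the filter on low counts, which kept 13638 genes.

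The study asked what curcumin and swimming exercise do together to breast tumours, by RNA sequencing of 12 tumour libraries in 4 groups of 3. In all 4 groups BALB/c mice (4 to 6 weeks of age) were injected under the skin with 0.2 mL of 4T1 cells, a mouse mammary carcinoma line (labelled 4T1-LUC), and 200 µL was given by gavage each afternoon. The control group (Tnm) and the swimming group (Tnm-swim) received corn oil. The curcumin group (Tnm-cur) and the combination group (Tnm+union) received curcumin at 100 mg/kg in corn oil, and the swimming and combination groups swam for 30 min after gavage. Curcumin is a polyphenol from turmeric. Every group therefore carries tumours and received gavage, and the animals injected with saline were not analysed here. Nothing in the labels says whether the 3 libraries of a group came from separate animals or tumours, and p-values therefore reflect the variation among these libraries alone, which may be technical.

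Glycolysis splits glucose into pyruvate in the cytosol and yields ATP without oxygen. Many tumours run it fast even when oxygen is present and export the product as lactate, while the pentose phosphate pathway branches off after the first step to supply NADPH and ribose. Several of these genes are classical targets of the hypoxia-inducible factors, transcription factors that bind the core sequences ACGTG and GCGTG when oxygen is low.

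Levels are given in CPM, counts scaled to a common library total after TMM scaling of the library sizes, as the values of libraries 1 to 3 of a group or as mean ± SD (n = 3). Log2 fold changes come from edgeR's quasi-likelihood test on the counts of all 12 libraries and are followed by the standard error (SE). The SE was derived as the absolute log2 fold change divided by the square root of that test's F statistic. P-values were adjusted by the Benjamini-Hochberg method over all 13638 genes, and a gene was called at 0.05 or below. The libraries held 15069348 to 17278826 counts, of which the members took 0.76% to 1.10%, and mitochondrially encoded genes 2.96% to 6.10%. Epithelial markers (8 of 8, led by Krt18 and Krt8) were at a summed 2792 to 3127 CPM in control, 2260 to 2895 in curcumin, 2894 to 3203 in swimming and 2750 to 2844 in combination, although Cldn7 had at most 8 counts and was at 0 in control 3 and curcumin 2. The control libraries stood far apart from each other, with a chi-square per degree of freedom of 21.9 to 68.4 between pairs over all genes. That value was 6.74 to 20.9 between curcumin libraries, 12.5 to 26.1 between swimming libraries and 3.61 to 7.49 between combination libraries, where pure counting noise gives about 1. Across all tested genes control 2 stood apart from its group: its log2 CPM correlated more with the swimming mean (r = 0.9778) than with the mean of the other controls (0.9611). Controls 1 and 3 correlated most with the curcumin mean (0.9863 and 0.9878), and swimming 2 and 3 most with the control mean (0.98 and 0.9826), so that 5 of 12 libraries were not closest to their own group. The own-group mean left out the library itself and so averaged fewer libraries than the other means, which can lower its value. For swimming 2 and 3 the gap was small, with 0.979 and 0.9809 for their own group. Whether a label is wrong was not tested, and each value against control carries this doubt. In bulk tumours, fewer cells of a type and less RNA per cell cannot be told apart.

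Levels per length of gene differed widely between members. In FPKM (counts divided by gene length and library total, as deposited), the highest member in the control group was the pyruvate kinase gene Pkm at 370.3 ± 52.2 (SD, n = 3). Aldoa, the main aldolase, stood at 258 ± 77.1, the mutase gene Pgam1 at 224 ± 49.8 and the lactate dehydrogenase gene Ldha at 201 ± 34.4, and these 3 do not differ beyond their spread. Of the lactate dehydrogenase FPKM, Ldha gave 99.0% and Ldhb 1.00% in control. The glucose transporter Slc2a1 (GLUT1) was at 66.9 ± 23.8 FPKM, while Slc2a3 (GLUT3) was at 1.3 ± 0.266. The lowest members besides Slc2a3 were the mitochondrial pyruvate carrier genes Mpc1 (1.32 ± 0.342) and Mpc2 (1.72 ± 0.372). Gapdh, usually among the most abundant transcripts of a cell, was listed at only 15.8 ± 1.86 FPKM; many near-identical pseudogenes exist, how shared reads were counted is not stated, and its values are therefore uncertain. Pgk1 and Eno1 have near-identical copies too.

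**Figure D1:**
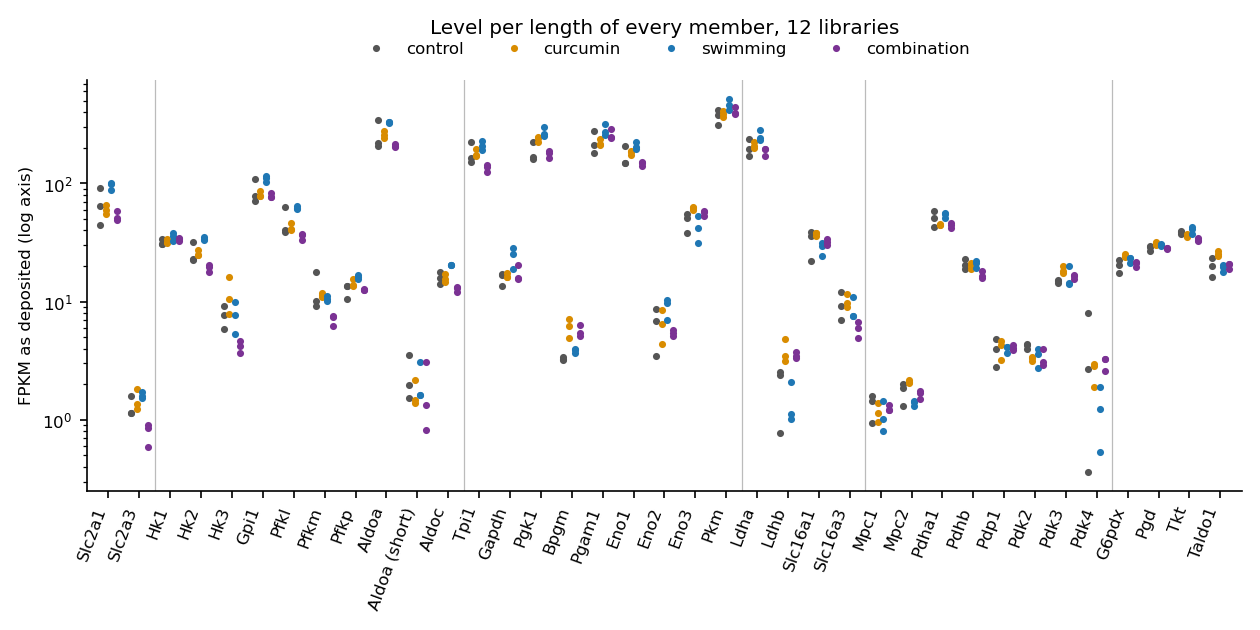
Level per length (FPKM as deposited, log axis) of each member in the 12 libraries; each point is 1 library, coloured by group, and vertical lines divide the steps of the pathway. Pkm lies highest and Slc2a3, Ldhb, Mpc1 and Mpc2 are among the lowest, and the control points of Pdk4 and Ldhb spread the most.

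The start regions of these genes were searched for ACGTG and GCGTG because several members are known targets of the hypoxia-inducible factors. RefSeq promoter sequences (build GRCm38.p6) were matched by symbol for 34 of the 36 members, giving 48 windows of the 250 bases before an annotated start, since some genes have several starts. ACGTG or GCGTG was searched on both strands, so that CACGTG, which holds ACGTG on each strand, counts as 2 matches. At least 1 match stood in 37 of 48 member windows (77.1%), against 38.6% of all 32851 windows of the same length. GC content differed too, with a median of 60.4% in member windows and 52.4% in all windows, and the motif itself is rich in C and G. Of the 10 members that fell in combination against swimming 9 had a window, and 12 of their 14 windows (85.7%) held a match, against 25 of 34 (73.5%) for the other members. With 2 or more matches the shares were 35.7% and 38.2%, and some windows of 1 gene overlap. A match is a description of letters and not a bound site. The 4 windows printed first belong to genes of 4 steps described in the results, namely a kinase of the lower pathway, the main inducible hexokinase, the main glucose transporter and the main lactate dehydrogenase. The last of these, Ldha, was not called in any comparison. Bpgm is printed as the 1 member called higher, and its window holds neither sequence. The same holds for the windows of Tpi1, which fell, and Gpi1, which was not called. Each runs 5′ to 3′ on the gene's strand up to the base before the start, and capitals mark the matches on either strand, so that CACGT is ACGTG and CACGC is GCGTG read on the other strand.
Pgk1 (chrX:106186850-106187099, forward strand): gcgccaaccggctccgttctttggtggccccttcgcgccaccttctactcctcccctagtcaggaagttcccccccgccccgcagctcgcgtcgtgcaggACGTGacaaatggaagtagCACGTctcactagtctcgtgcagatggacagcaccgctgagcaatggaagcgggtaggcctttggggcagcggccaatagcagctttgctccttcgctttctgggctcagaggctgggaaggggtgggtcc
Hk2 (chr6:82774455-82774704, reverse strand): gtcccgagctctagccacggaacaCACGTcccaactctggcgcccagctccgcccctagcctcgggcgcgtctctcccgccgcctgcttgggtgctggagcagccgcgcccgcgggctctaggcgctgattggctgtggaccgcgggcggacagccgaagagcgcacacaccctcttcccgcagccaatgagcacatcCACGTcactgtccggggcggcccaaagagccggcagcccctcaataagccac
Slc2a1 (chr4:119108495-119108744, forward strand): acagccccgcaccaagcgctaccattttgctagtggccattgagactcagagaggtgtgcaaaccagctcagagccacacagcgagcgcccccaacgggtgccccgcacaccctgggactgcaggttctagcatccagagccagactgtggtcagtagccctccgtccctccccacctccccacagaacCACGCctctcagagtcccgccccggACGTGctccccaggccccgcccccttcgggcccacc
Ldha, first of its starts (chr7:46845554-46845803, forward strand): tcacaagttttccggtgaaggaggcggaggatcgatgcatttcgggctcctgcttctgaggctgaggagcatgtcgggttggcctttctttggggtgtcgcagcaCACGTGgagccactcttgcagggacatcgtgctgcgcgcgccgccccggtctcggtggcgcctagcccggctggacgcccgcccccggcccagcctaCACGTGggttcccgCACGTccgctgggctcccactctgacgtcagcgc
Bpgm (chr6:34476106-34476355, forward strand): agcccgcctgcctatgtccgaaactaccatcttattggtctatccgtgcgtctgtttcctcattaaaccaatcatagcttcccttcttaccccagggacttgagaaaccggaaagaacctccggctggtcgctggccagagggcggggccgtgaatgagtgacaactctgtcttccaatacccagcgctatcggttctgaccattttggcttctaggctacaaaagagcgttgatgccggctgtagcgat
Pgk1 and Hk2 each hold ACGTG 2 times, Slc2a1 holds each sequence 1 time, and Ldha holds ACGTG 5 times, 4 of them as the 2 strands of 2 CACGTG.

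Members differed most between the combination and swimming groups. There 11 of 37 members were called (29.7%, against 6.66% of all genes tested), 10 lower and 1 higher in combination (3.15% and 3.5% of all genes). The 10 were the glucose transporters Slc2a1 and Slc2a3, the hexokinase Hk2, the phosphofructokinase Pfkl, the aldolases Aldoa and Aldoc, Tpi1, Pgk1, Eno1 and the transketolase Tkt, and their log2 fold changes ran from -1.06 to -0.29. The 1 higher was Bpgm. The median over the members was -0.32, against -0.01 over all genes, and 28 of 37 were negative (49.4% of all genes were positive). In 25 of 37 members the 3 combination libraries lay wholly on one side of the 3 swimming libraries, 21 lower and 4 higher, against 20.2% and 20.4% of all genes. These 11 calls rest on the combination libraries being separate samples, which the labels do not state. With their counts summed into 1 sample that group has no spread of its own, and that fit is described further below for members and all genes. Without combination 1, 2 or 3 the number of members called was 2, 0 and 2 (0.644%, 0.225% and 0.585% of all genes). Without swimming 1 or 3 it was 2 and 3 (0.788% and 1.17% of all genes). Without curcumin 3 it was 6 (3.38% of all genes), and without control 1 or 2 it was 18 and 20 (11.9% and 19.5% of all genes). Hk2 and Aldoc kept their call in 11 of 12 such fits, losing it without combination 2. The other 9 lost theirs without swimming 1, swimming 3 or any combination library. Without swimming 2 or curcumin 3, Aldoa, Eno1, Slc2a1, Tkt and Bpgm were not called either, nor were Eno1, Slc2a1 and Tkt without curcumin 1 or 2, nor Bpgm without control 3. With no low-count filter, which tests more genes, Slc2a1, Bpgm and Tkt were not called.

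The other comparisons called few members. Curcumin against control called 0 of 37, as it did of all genes (0%), with 7 members at an unadjusted p under 0.05 in edgeR (10.9% of all genes) and 1 called by DESeq2 (Bpgm). Swimming against control called 0 (0.308% of all genes), with 15 higher and none lower at an unadjusted p under 0.05, where 5.87% and 7.11% of all genes stood, and 4 were called by DESeq2 (Pgk1, Gapdh, Aldoc and Pfkp). Combination against control called 2 (4.86% of all genes), Bpgm higher and Pfkm lower (2.43% of all genes in each direction). Combination against curcumin called 1 (0.851% of all genes), Hk3, lower (0.491% of all genes were lower). Swimming against curcumin called 0 (1.78% of all genes), with 19 at an unadjusted p under 0.05 (21.8% of all genes) and 11 called by DESeq2. The interaction, which asks whether swimming acted differently with curcumin than without, called 0 (0.249% of all genes), with 16 at an unadjusted p under 0.05 (11% of all genes) and 5 called by DESeq2. DESeq2 also called more of all genes than edgeR in every comparison, and its member counts are to be read beside its counts over all genes, given further below. These comparisons share libraries and are not independent of each other.

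**Figure D2:**
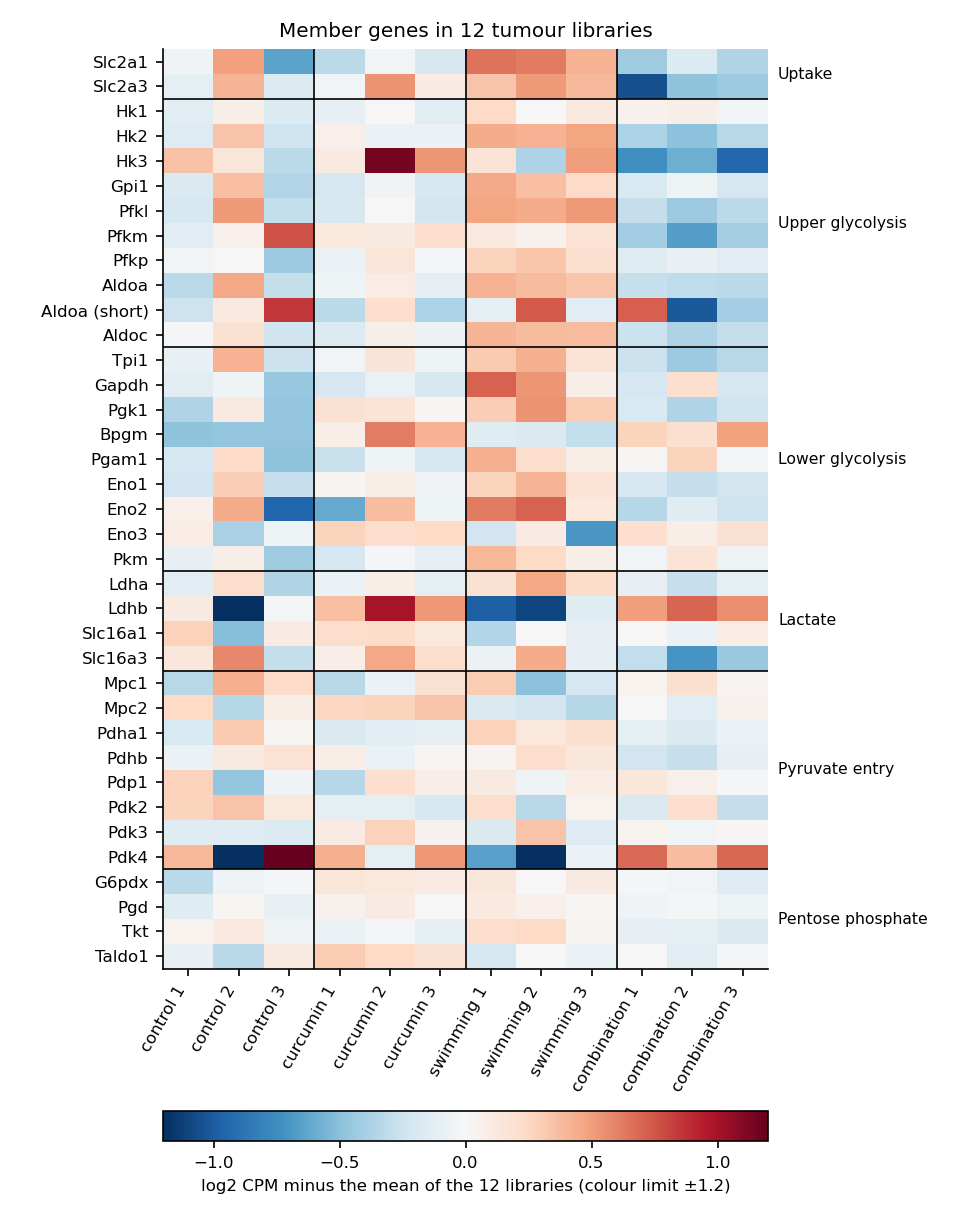
Log2 CPM of each member minus its mean over the 12 libraries (rows: members by step; columns: libraries; red above, blue below, colour limit 1.2). Most upper glycolysis genes are red in the 3 swimming libraries and blue in the 3 combination libraries. Most lower glycolysis genes are red in swimming too, but in combination Bpgm and Eno3 are red and Pgam1, Pkm and Gapdh are mixed. Control 2 resembles the swimming columns more than controls 1 and 3 do.

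Glucose uptake begins the pathway. Slc2a1 (GLUT1, chr4:118965908-118995180 in the deposited table), the transporter of most dividing cells, was at 226, 329 and 149 CPM in control, 187, 228 and 204 in curcumin, 366, 359.5 and 311 in swimming and 173, 208 and 181 in combination. The swimming libraries lay above all combination and all curcumin libraries, while control 2 lay between swimming 3 and swimming 2. Slc2a1 fell in combination against swimming (-0.88 ± 0.219, adjusted p = 0.0395) and was not called in swimming against control (0.56 ± 0.218, adjusted p = 0.312). The high-affinity transporter Slc2a3 (GLUT3, chr6:122704768-122778599) was at 8.24, 11.9 and 7.99 CPM in control, 8.74, 13.1 and 9.57 in curcumin, 11.4, 12.8 and 11.7 in swimming and 4.24, 6.36 and 6.57 in combination. All 3 combination libraries were the lowest of the 12. Its difference was -1.06 ± 0.225 from swimming (adjusted p = 0.0212), -0.87 ± 0.225 from curcumin (adjusted p = 0.0842) and -0.71 ± 0.225 from control (adjusted p = 0.0764), and the first was called.

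Hexokinases trap glucose as its phosphate. Hk2, the inducible form bound to mitochondria in many tumours (chr6:82702006-82751435), was at 137, 195 and 129.9 CPM in control, 159.6, 146 and 146 in curcumin, 208, 205 and 212 in swimming and 118, 108 and 121 in combination. The 4 groups' means were ordered swimming, control, curcumin and combination, with no combination library as high as any other library and no swimming library as low as any other. Control and curcumin did not differ beyond their spread. Hk2 fell in combination against swimming by 0.85 on the log2 scale (SE 0.127, adjusted p = 0.00799), the smallest p of all members in that comparison. From control it differed by -0.41 ± 0.126 (adjusted p = 0.0706) in combination and by 0.44 ± 0.126 (adjusted p = 0.166) in swimming, neither called.

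Hk3, a hexokinase known from myeloid cells (chr13:55153798-55169198), was the member called in combination against curcumin. It was at 33.4, 28.9 and 20.9 CPM in control, 28.2, 58.1 and 37.8 in curcumin, 29.4, 20.2 and 37.1 in swimming and 15.7, 17.4 and 13.6 in combination, where every library lay below every other library of the series. The difference from curcumin was -1.41 ± 0.286 (adjusted p = 0.048), and the call was lost with RLE scaling and with no low-count filter. The call was also lost with the combination libraries summed into 1 sample, like every call of that comparison. It was kept in 5 of 12 fits that each left out 1 library and lost without control 3, curcumin 2 or 3, swimming 1 or any combination library. Neutrophil and macrophage markers varied beside it. Macrophage markers (9 of 9, none at 0) summed to 1191 to 1878 CPM in curcumin and 1012 to 1020 in combination, with 979 to 2110 in control and 756 to 1283 in swimming. Neutrophil markers (10 of 10) summed to 484 to 566 CPM in curcumin, 458 to 474 in combination, 340.2 to 357 in control and 299 to 448 in swimming, most of it from Mmp9. The neutrophil gene S100a9 had 172 to 1347 counts in control, 234 to 645 in curcumin, 609 to 636 in swimming and 77 to 96 in combination. Unlike in the sum, every combination library was below every other library for S100a9, S100a8, Retnlg, Csf3r and the scarce Camp. Cxcr2 (84 to 140 counts in curcumin, 94 to 101 in combination), Mmp8, Mmp9 and Ltf overlapped between curcumin and combination. Ly6g had only 1 to 6 counts in curcumin and was at 0 in combination 2 and 3. Their part in the Hk3 result was not tested. The ubiquitous Hk1 was at 309 ± 24.6 CPM in swimming and 289 ± 10.8 in combination. Hk2 was 44.3% of the hexokinase FPKM in swimming and 33.8% in combination.

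Phosphofructokinase commits sugar to glycolysis and has 3 subunits. The liver-type Pfkl (chr10:77822781-77845917), the most abundant here, was at 267, 436 and 249 CPM in control, 268, 305 and 263 in curcumin, 426, 416 and 437 in swimming and 251, 226 and 245 in combination. Swimming and combination were each tight and far apart, while control 2 lay among the swimming values. Pfkl fell in combination against swimming (-0.82 ± 0.168, adjusted p = 0.0199). The platelet-type Pfkp (chr13:6629804-6698813) was at 181, 185 and 137 CPM in control, 177, 205 and 183 in curcumin, 223, 233 and 211 in swimming and 168, 174 and 169 in combination. Its 3 swimming libraries were the highest of the 12, with a difference of 0.41 ± 0.108 from control (adjusted p = 0.138) and -0.38 ± 0.108 between combination and swimming (adjusted p = 0.0509), neither called.

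The muscle-type Pfkm (chr15:97990470-98030332) was at 30.4, 34.8 and 57 CPM in control, 36.5, 36.1 and 38.7 in curcumin, 36.2, 34.6 and 37.7 in swimming and 25, 21.1 and 25.2 in combination, whose 3 libraries were the lowest of all. Pfkm fell in combination against control (-0.78 ± 0.186, adjusted p = 0.0386). Control 3, at 57.0 CPM, carried the high mean of its group, and without it the difference was -0.45 and was not called. Skeletal muscle markers (12 of 12) moved beside it, summing to 44.3 to 636 CPM in control with control 3 the highest, 458 to 527 in curcumin, 72.6 to 273 in swimming and 131 to 137 in combination. Ckm and Myh4 were at 0 in swimming 2 and no muscle marker was at 0 elsewhere. Their part in the Pfkm result was not tested. The call was kept in 4 of 12 fits that each left out 1 library and lost without control 3, swimming 1, or any curcumin or combination library.

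Aldolases cut the 6-carbon sugar in the middle of the pathway. Aldoa (chr7:126394406-126399923) was at 601, 1034 and 618 CPM in control, 727, 802 and 692 in curcumin, 1003, 982 and 951 in swimming and 623, 610.3 and 603 in combination. Control 2 was the highest of all 12 libraries, whereas controls 1 and 3 were at the level of the combination libraries. Aldoa fell in combination against swimming (-0.68 ± 0.167, adjusted p = 0.0347). The short second Aldoa model held 11 to 47 counts a library and was not called in any comparison. Aldoc (chr11:78213794-78218607), a form known best from brain, was at 51.2, 59.3 and 44.3 CPM in control, 46.7, 55 and 49.6 in curcumin, 69.2, 67.9 and 67.6 in swimming and 43.7, 40.2 and 42.7 in combination. Its swimming libraries lay above every other library and its combination libraries below every other library. The fall in combination against swimming was -0.69 ± 0.107 (adjusted p = 0.00868), and swimming against control gave 0.40 ± 0.106 (adjusted p = 0.138), not called. Gpi1, the isomerase between hexokinase and phosphofructokinase, was at 724 ± 56.2 CPM in swimming and 513 ± 27.8 in combination and was not called (-0.50 ± 0.148, adjusted p = 0.0599).

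**Figure D3:**
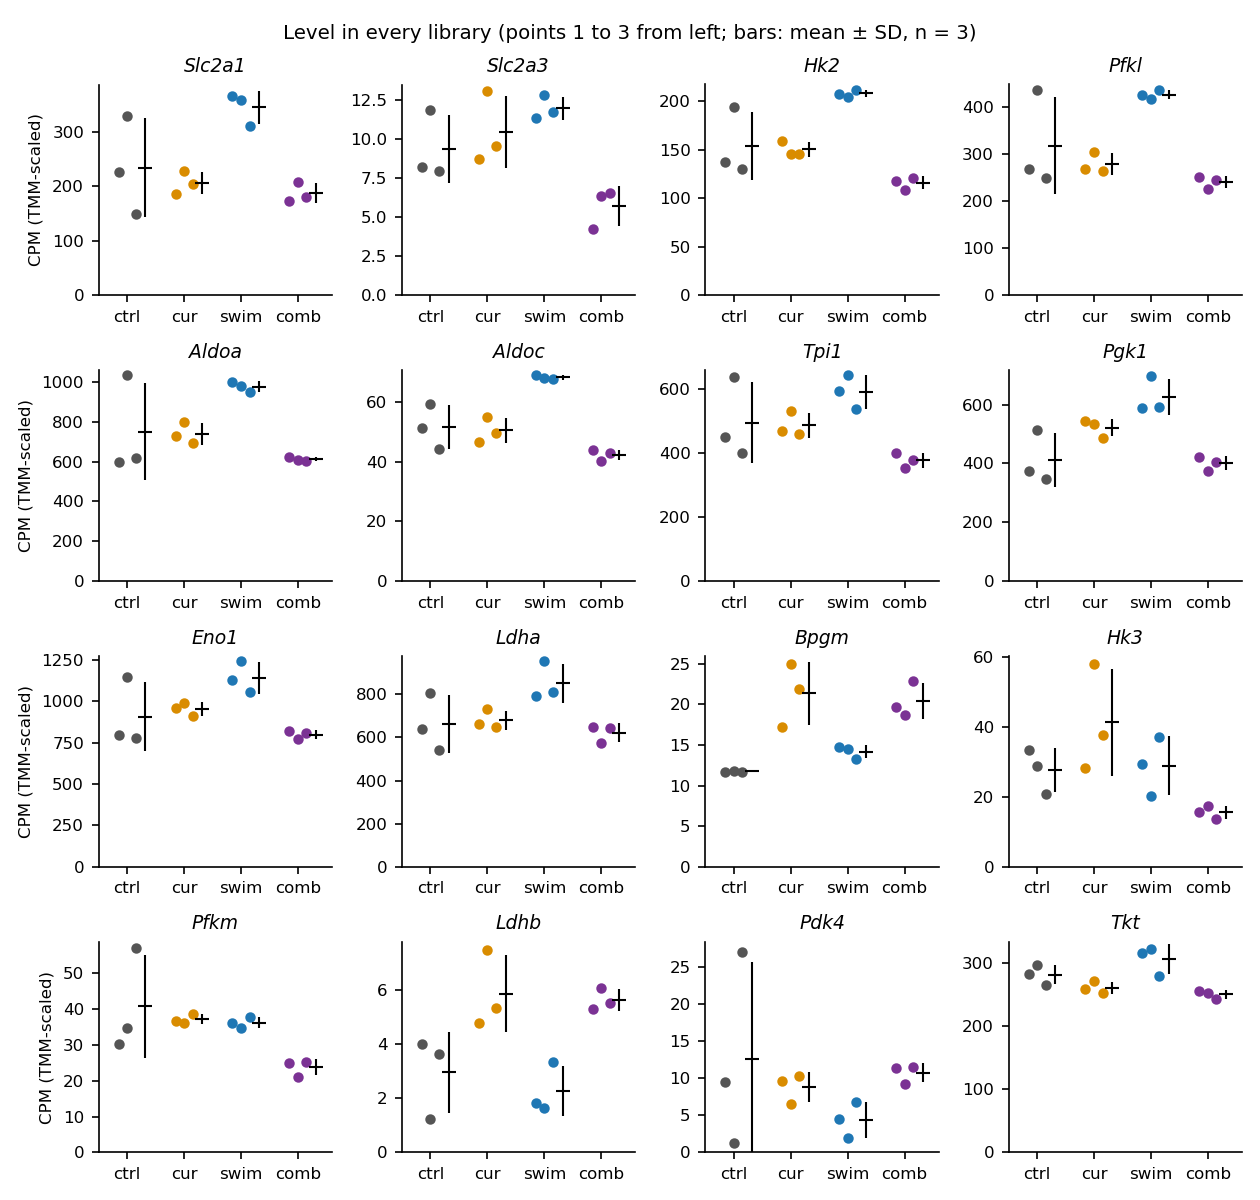
TMM-scaled CPM of 16 members in every library (points, libraries 1 to 3 from left) with the group mean and SD (n = 3; bars are clipped at 0 for Pdk4). For Hk2, Aldoc and Pfkl the swimming and combination points do not overlap, Bpgm is lowest in the 3 control libraries, and the control points of Aldoa and Slc2a1 span nearly the whole range of the other groups.

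Of the lower, ATP-yielding steps, Tpi1, Pgk1 and Eno1 fell in combination against swimming. Triose phosphate isomerase Tpi1 (chr6:124787549-124791259) was at 448, 637 and 399 CPM in control, 467, 529.9 and 459.9 in curcumin, 593, 642 and 536 in swimming and 398, 352 and 378 in combination. The combination libraries were below all others, though combination 1 (398) and control 3 (399) all but touched. Its difference from swimming was -0.65 ± 0.147 (adjusted p = 0.0255). Phosphoglycerate kinase Pgk1 (chrX:105230706-105247305), the first ATP-making step, was at 374, 515 and 345 CPM in control, 543, 535 and 487 in curcumin, 588, 698 and 592 in swimming and 423, 374 and 405 in combination. Swimming was highest in all 3 libraries, and combination overlapped controls 1 and 3 while lying below every curcumin library. Pgk1 fell in combination against swimming (-0.65 ± 0.134, adjusted p = 0.02), and its difference of -0.38 ± 0.133 from curcumin was not called (adjusted p = 0.164).

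Enolase makes phosphoenolpyruvate, the last high-energy intermediate. The ubiquitous Eno1 (chr4:150321178-150333336) was at 799, 1149 and 776 CPM in control, 958, 993 and 913 in curcumin, 1129, 1248 and 1056 in swimming and 819.5, 772 and 808 in combination. Combination 2 was the lowest library and control 2 the highest but for swimming 2, and swimming and combination did not overlap. Eno1 fell in combination against swimming (-0.52 ± 0.133, adjusted p = 0.0394). The neuronal-type Eno2 (15.8 to 50 CPM over the 12 libraries) and the muscle-type Eno3 were not called in any comparison. Eno3 was at 75.1 ± 20.1 CPM in swimming and 82.5 ± 13.5 in control, and at 99 ± 4.3 in combination and 105 ± 1.9 in curcumin. Muscle marker sums were 44.3 to 636 CPM in control, 458 to 527 in curcumin, 72.6 to 273 in swimming and 131 to 137 in combination. The part of muscle cells in the Eno3 values was not tested. As a share of enolase FPKM, Eno3 was 16.1% in swimming and 27% in combination.

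Pyruvate kinase and glyceraldehyde phosphate dehydrogenase, at the ends of the lower pathway, were not called. Pkm was at 1897, 2125 and 1509 CPM in control, 1758, 2008 and 1881 in curcumin, 2680, 2387 and 2124 in swimming and 1986, 2269 and 1945 in combination, and all 4 groups overlapped with at least 1 other. It differed by 0.38 ± 0.132 between swimming and control (adjusted p = 0.25) and by -0.21 ± 0.131 between combination and swimming (adjusted p = 0.309). The gene table does not separate the M1 and M2 forms of Pkm. Gapdh was at 68.5, 72.2 and 54.5 CPM in control, 65.1, 71.1 and 65.7 in curcumin, 122, 108 and 78.9 in swimming and 65.2, 86.4 and 65.1 in combination, and its values are uncertain for the reason of its copies. The swimming libraries lay above all control libraries (0.67 ± 0.163, adjusted p = 0.117). Pgam1 was at 574 ± 70.5 CPM in swimming and 516 ± 56.8 in combination.

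Bpgm (chr6:34453142-34482548) was the 1 member called higher in any comparison. It encodes bisphosphoglycerate mutase, which diverts an intermediate around the first ATP-making step and is best known from red blood cells. Its level was 11.7, 11.8 and 11.7 CPM in control, 17.2, 25 and 21.9 in curcumin, 14.8, 14.5 and 13.3 in swimming and 19.7, 18.7 and 22.9 in combination. The 3 control libraries were the lowest and nearly equal, swimming was next without overlap, and all curcumin and combination libraries were above both. Bpgm rose in combination against control (0.80 ± 0.143, adjusted p = 0.0186) and against swimming (0.53 ± 0.143, adjusted p = 0.046). Curcumin against control gave 0.86 ± 0.144 (adjusted p = 0.1), not called by edgeR and called by DESeq2 (adjusted p = 0.000295). Swimming against curcumin gave -0.59 ± 0.143 (adjusted p = 0.0536), and combination against curcumin -0.07 ± 0.141 (adjusted p = 0.845). The call against control was kept in 9 of 12 fits that left out 1 library and lost without each combination library, and that against swimming was kept in 4 of 12. Red cell markers (7 of 8 in the table) summed to 11.8 to 25 CPM in control, 5.95 to 12.5 in curcumin, 13.8 to 38.9 in swimming and 8.9 to 10.5 in combination. Of them, Hba-a1, Hbb-bs and Alas2 were above 0 in all 12 libraries, while Slc4a1 was at 0 in control 2 and curcumin 3, Hba-a2 in control 1 and curcumin 1, and Hbb-bt in combination 2. The markers did not move alike. Hbb-bs had 96, 205 and 96 counts in control, 97, 39 and 58 in curcumin, 177, 97 and 260 in swimming and 62, 54 and 69 in combination. The scarce Slc4a1 had 2, 0 and 3 counts in control, 6, 1 and 0 in curcumin, 5, 2 and 11 in swimming and 10, 7 and 6 in combination. The part of red cells in the Bpgm values was not tested.

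Lactate dehydrogenase turns pyruvate into lactate, and monocarboxylate transporters carry lactate across the membrane. Ldha was at 639, 806 and 543 CPM in control, 663, 730.3 and 647 in curcumin, 792, 957 and 809 in swimming and 649.6, 573 and 645 in combination. The swimming libraries were above all curcumin and combination libraries, and control 2 lay among them. Its difference between combination and swimming was -0.45 ± 0.132 (adjusted p = 0.0569), not called. Ldhb, the form that favours pyruvate, was at 4, 1.24 and 3.62 CPM in control, 4.76, 7.45 and 5.33 in curcumin, 1.81, 1.65 and 3.32 in swimming and 5.27, 6.06 and 5.5 in combination. These are low levels, from 21 to 114 counts a library. Every library of the 2 groups given curcumin was above every library of the 2 groups not given it. The differences were 0.98 ± 0.379 for curcumin against control (adjusted p = 0.393), 0.92 ± 0.379 for combination against control (adjusted p = 0.144) and 1.30 ± 0.389 for combination against swimming (adjusted p = 0.0606), and none was called.

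The ratio of Ldha to Ldhb in FPKM was 71.1 to 308 in control and 115 to 275 in swimming, against 46.5 to 66.1 in curcumin and 44.9 to 58.5 in combination. The high control value came from control 2, whose Ldhb was the lowest of all. In an exact 2-sided permutation test of 3 against 3 libraries, the log2 ratio differed by -1.08 between curcumin and control and by -1.83 between combination and swimming, each at p = 0.1, the smallest possible. Without control 2 the first difference was -0.39, and over all libraries left out in turn it ran from -1.44 to -0.39. Over 36 such tests of 6 isoform pairs the exact permutation p adjusted to 0.257 for each of these. The ratio of Hk2 to Hk1 was 0.733 to 0.934 in control, 0.734 to 0.863 in curcumin, 0.891 to 1.03 in swimming and 0.522 to 0.626 in combination. Combination did not overlap any other group in that ratio, again at an exact permutation p of 0.1 and 0.257 after adjustment.

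Slc16a3 (MCT4), the exporter of glycolytic cells, was at 48.2, 65.4 and 35.9 CPM in control, 46.3, 60.4 and 50.8 in curcumin, 41.7, 59.5 and 41 in swimming and 35.8, 26.7 and 32 in combination. The 3 combination libraries were the lowest of the 12, with combination 1 and control 3 almost equal. It was not called, with -0.73 ± 0.215 against curcumin (adjusted p = 0.113), -0.66 ± 0.215 against control (adjusted p = 0.0864) and -0.59 ± 0.215 against swimming (adjusted p = 0.107). DESeq2 called it lower against control and against curcumin. Slc16a1 (MCT1), which moves lactate in either direction, was at 129 ± 15.6 CPM in swimming and 143 ± 7.92 in combination and was not called.

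None of the 8 genes of pyruvate entry into mitochondria was called in any comparison. These are the carrier genes Mpc1 and Mpc2, the pyruvate dehydrogenase subunit genes Pdha1 and Pdhb, the phosphatase gene Pdp1 and the inhibitory kinase genes Pdk2, Pdk3 and Pdk4. Pdhb was at 82.2 ± 5.14 CPM in swimming and 65.7 ± 4.29 in combination (-0.32 ± 0.091, adjusted p = 0.0512), and Pdha1 at 207 ± 10.5 and 166 ± 6.2 (-0.32 ± 0.105, adjusted p = 0.0816). Over all 12 libraries Mpc1 ran from 1.72 to 3.37 CPM, Mpc2 from 9.77 to 15.7, Pdp1 from 12.8 to 21.5, Pdk2 from 8.86 to 14.2 and Pdk3 from 37.2 to 53. Pdk4, a kinase that spares glucose in muscle and fasting tissue, was at 9.45, 1.3 and 27.1 CPM in control, 9.65, 6.6 and 10.3 in curcumin, 4.49, 1.92 and 6.77 in swimming and 11.4, 9.27 and 11.6 in combination. Control 3 was highest and control 2 lowest, so that the control group alone spanned all other libraries. Its difference of -1.52 ± 0.763 between swimming and control was not called (adjusted p = 0.44). The order of the control libraries was that of their muscle marker sums, but across groups it was not: mean Pdk4 was 10.8 CPM in combination and 8.84 in curcumin, while the muscle sums were lower in combination. The part of those cells in Pdk4 was not tested.

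Of the 4 pentose phosphate genes, the transketolase Tkt was called. Tkt (chr14:30270316-30296677), in the branch that returns carbon to glycolysis, was at 282, 296 and 265 CPM in control, 259, 270.5 and 252 in curcumin, 315, 322 and 278 in swimming and 255, 252 and 242 in combination. The 3 swimming libraries lay above the 3 combination libraries, with the smallest change of the 10 called lower (-0.29 ± 0.079, adjusted p = 0.0466). G6pdx, the NADPH-making entry step, was at 53.9, 64.8 and 66.5 CPM in control, 75.1, 74 and 72.4 in curcumin, 74.6, 67.5 and 72.9 in swimming and 67.3, 66.4 and 60.9 in combination. Curcumin and swimming libraries were each above all control libraries, with 0.26 ± 0.091 for curcumin (adjusted p = 0.373) and 0.22 ± 0.092 for swimming (adjusted p = 0.34), not called. Taldo1, the transaldolase, was at 43, 36.2 and 49.4 CPM in control, 56.4, 54 and 51.8 in curcumin, 39.7, 45.8 and 43.2 in swimming and 45.7, 41.6 and 45.3 in combination. The 3 curcumin libraries were the highest of the 12 (0.34 ± 0.111 against control, adjusted p = 0.357), not called. Pgd, the second NADPH-making enzyme, spanned only 172 to 206 CPM over all libraries.

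**Figure D4:**
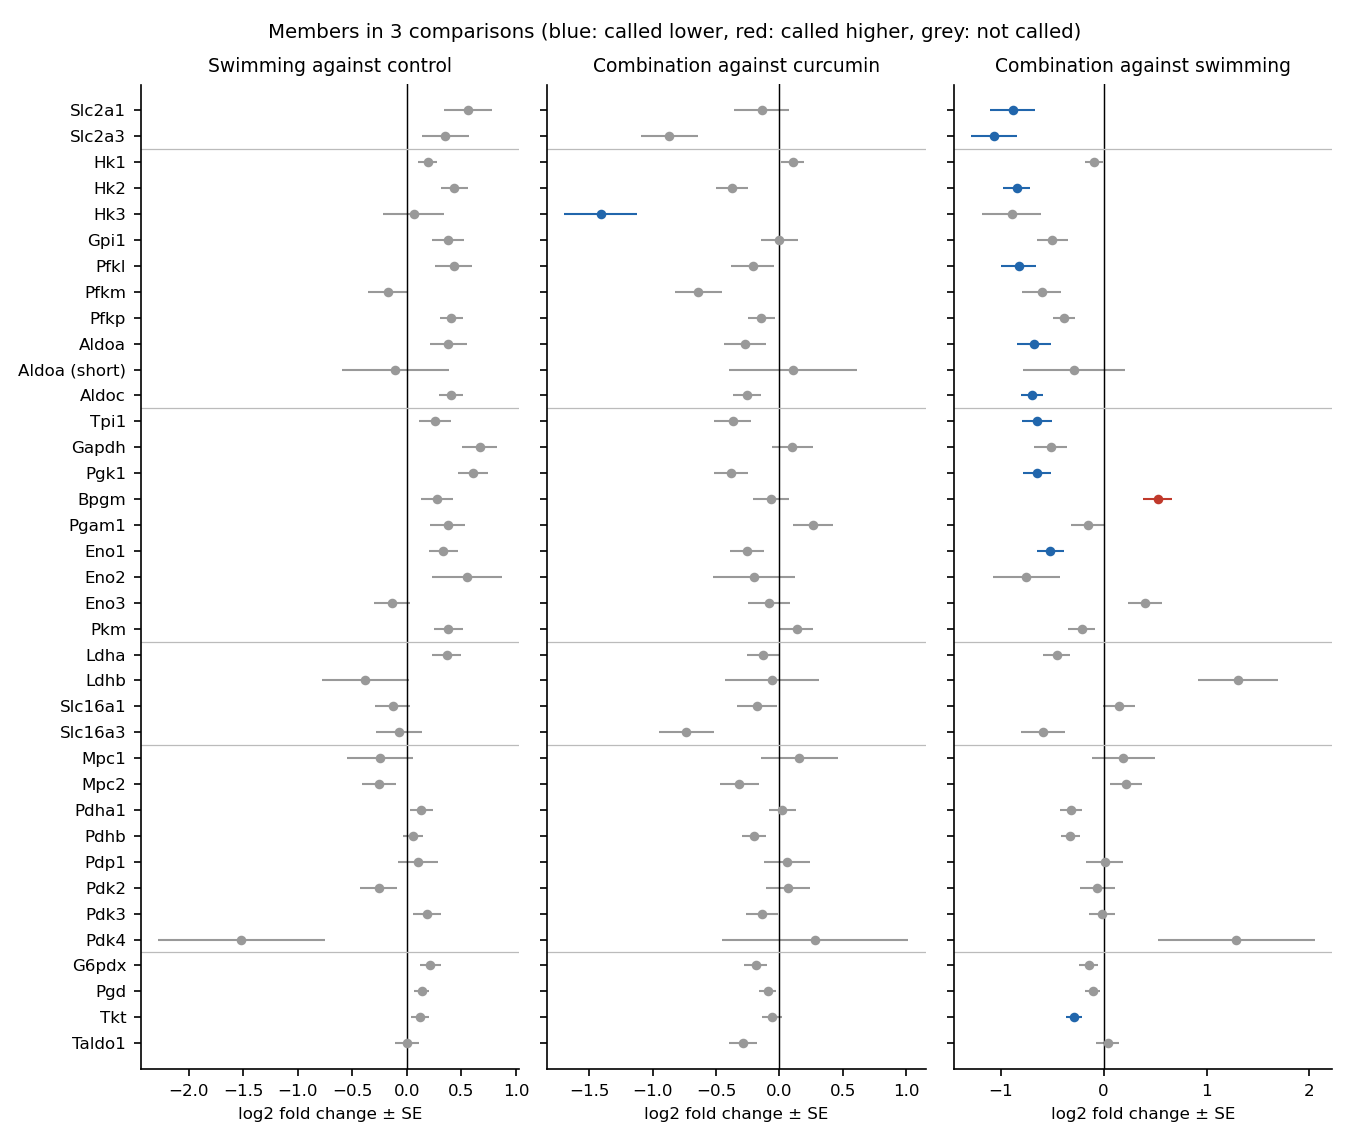
Log2 fold change with its standard error of each member in 3 comparisons (points; blue called lower, red called higher, grey not called). Against swimming, 10 members are called lower in combination and Bpgm higher; against curcumin, Hk3 is called lower; in swimming against control, most points lie above 0 and none is called.

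In swimming against control 27 of 37 members were positive (48% of all genes), with a median of 0.19 against -0.01 over all genes, and the positive ones included each of the 9 lower glycolysis genes but Eno3. Control 2 bore on this comparison. Its values lay among or above those of swimming for genes including Slc2a1, Slc2a3, Gpi1, Pfkl, Aldoa, Tpi1, Eno1 and Ldha. It also had the lowest muscle marker sum of the control libraries (44.3 CPM against 293 and 636) and the lowest cell cycle marker sum of the series (799 CPM, 12 of 12 genes). Without control 2, in a fit that leaves 2 control libraries, 15 members were called (4.36% of all genes in that fit), 14 higher and Pdk4 lower. Pgk1 then rose by 0.80 ± 0.099 (adjusted p = 0.00067), Pfkl by 0.72 ± 0.087 (adjusted p = 0.000646), Aldoa by 0.68 ± 0.082 (adjusted p = 0.000646) and Hk2 by 0.64 ± 0.08 (adjusted p = 0.000693). Slc2a1 rose by 0.88 ± 0.159 (adjusted p = 0.0122) and Ldha by 0.53 ± 0.109 (adjusted p = 0.0179). No label sets control 2 apart, and leaving it out is a check and not the result. Without it combination against control called Bpgm and Pfkm as before (2 members, 2.29% of all genes), and curcumin against control called 0 (0.0579% of all genes). Without any other single library the count of called members in this comparison was 0.

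**Figure D5:**
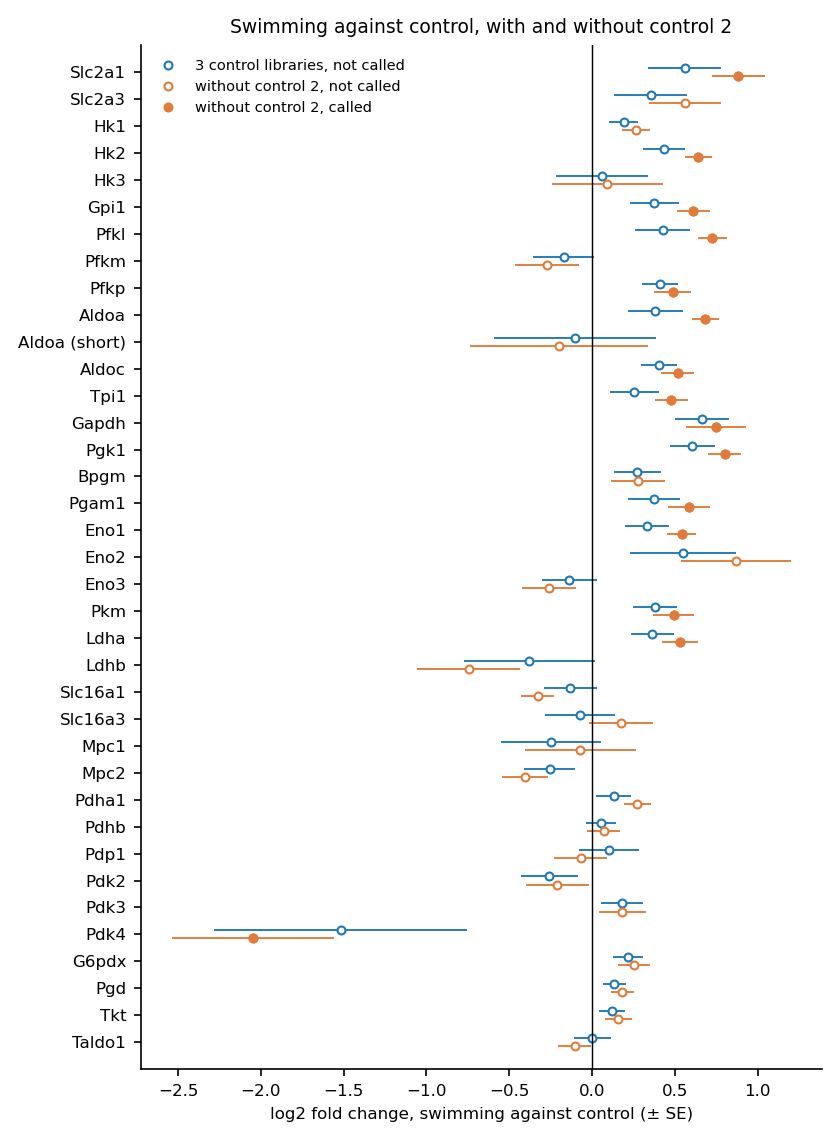
Log2 fold change of each member in swimming against control (± SE), with all 3 control libraries (blue, none called) and without control 2 (orange, filled where called). Without control 2 most glycolysis points move to the right and 14 are called higher, while Pdk4 is called lower.

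Swimming and curcumin were set against each other and combined in the interaction. In swimming against curcumin the 3 and 3 libraries did not overlap for 23 of 37 members, 17 higher and 6 lower in swimming, against 15.5% and 15.3% of all genes, and none was called. The interaction was negative for 31 of 37 members (50.4% of all genes were positive), with a median of -0.34 against 0.00 over all genes. Pgk1 had the smallest p (-0.99 ± 0.189, adjusted p = 0.0558). It was followed by Hk2 (-0.81 ± 0.178, adjusted p = 0.103), Aldoc (-0.66 ± 0.151, adjusted p = 0.126) and Slc2a3 (-1.22 ± 0.314, adjusted p = 0.168). None passed the threshold. In 5 members, Aldoc, G6pdx, Hk2, Pfkp and Pgk1, every swimming library was above every control library (5.83% of all genes) and every combination library below every curcumin library (18.5% of all genes). Both held for 0.521% of all genes. For Hk2, swimming gave 0.44 without curcumin and -0.38 with it. Without control 2 the interaction called 12 members (3.29% of all genes in that fit), all lower, among them Hk2 (-1.02 ± 0.107, adjusted p = 0.000266) and Pgk1 (-1.18 ± 0.131, adjusted p = 0.000351).

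Of 44 further genes of these pathways, 33 were tested. Pdk1, a pyruvate dehydrogenase kinase known as a hypoxia target, and Pgm1, a phosphoglucomutase of glycogen metabolism, fell in combination against swimming, and no other was called in any comparison. These 2 of 33 stand beside 6.66% of all genes called there, a like share. Pdk1 was at 61, 91.2 and 59.8 CPM in control, 69.9, 71.2 and 75.8 in curcumin, 96.9, 102 and 109 in swimming and 51.7, 46.6 and 55 in combination. The combination libraries were the lowest and the swimming libraries the highest of the 12 (a fall of 1.0 on the log2 scale, SE 0.141, adjusted p = 0.00595). Pgm1 differed by -0.61 ± 0.132 (adjusted p = 0.023). The smallest p of this list belonged to Pdk1 in combination against control (-0.47, adjusted p = 0.0672), to Slc2a6 in combination against curcumin (-1.05, adjusted p = 0.0577) and in curcumin against control (0.93, adjusted p = 0.281), and to Pgm1 in swimming against control (0.51, adjusted p = 0.134). In swimming against curcumin and in the interaction it was Pdk1 again (0.50, adjusted p = 0.0781, and -1.03, adjusted p = 0.0558).

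Hypoxia-responsive genes outside the pathway were read beside the members. Of 16 tested, 7 fell and none rose in combination against swimming (3.15% and 3.5% of all genes), and 15 were negative, with a median of -0.74. The 3 of smallest p were Ddit4, an inhibitor of growth signalling (-1.28 ± 0.222, adjusted p = 0.0136), Ero1a, an oxidase of the endoplasmic reticulum (-1.03 ± 0.195, adjusted p = 0.0169), and Bnip3l, a mitophagy receptor (-0.47 ± 0.102, adjusted p = 0.0232). The summed level of the list was 1428 to 2805 CPM in control, 1922 to 2235 in curcumin, 2820 to 3295 in swimming and 1764 to 1791 in combination. Every swimming library was above every other library in that sum, but control 2 (2805 CPM) all but touched swimming 3 (2820 CPM). In log2 CPM minus each gene's mean over the 12 libraries, averaged over the list, control 2 (0.327) lay above swimming 3 (0.294). In swimming against control all 16 were positive with a median of 0.50 and none was called, the smallest p being that of Ero1a (0.82, adjusted p = 0.114). In swimming against curcumin 1 rose, the demethylase gene Kdm3a (0.59 ± 0.136, adjusted p = 0.0474). None was called in the other comparisons, where the smallest p belonged to Ddit4 in combination against control (-0.78, adjusted p = 0.0617), to Ero1a in combination against curcumin (-0.55, adjusted p = 0.171) and in the interaction (-1.38, adjusted p = 0.0804), and to Kdm3a in curcumin against control (-0.39, adjusted p = 0.369).

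Regulators of the pathway were called in both directions. Of 14 tested, combination against swimming called 3, 1 higher and 2 lower (3.5% and 3.15% of all genes). Epas1, which encodes HIF-2 alpha and is high in endothelium, rose (0.96 ± 0.22, adjusted p = 0.0276), while Egln1, an oxygen-sensing hydroxylase, and Vhl, the adaptor for destruction of HIF, fell (-0.38 ± 0.089, adjusted p = 0.0296, and -0.49 ± 0.132, adjusted p = 0.0444). Vhl also fell in combination against control (-0.54 ± 0.131, adjusted p = 0.0394), and Mlx, the partner of the glucose-sensing ChREBP, was lower in swimming than in curcumin (-0.60 ± 0.109, adjusted p = 0.0233). Hif1a and Myc were not called in any comparison. Where no regulator was called, the smallest p was that of Hif1a in curcumin against control (0.25, adjusted p = 0.442), of Egln1 in swimming against control (0.42, adjusted p = 0.0722) and in the interaction (-0.50, adjusted p = 0.168), and of Mlxipl, which encodes ChREBP, in combination against curcumin (-2.15, adjusted p = 0.0815).

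Markers of other cells moved between the same groups as the 11 calls in combination against swimming. Endothelial markers (9 of 9) summed to 153 to 245 CPM in swimming and 458 to 512 in combination, and adipocyte markers (9 of 9) to 14.1 to 15.1 and 36.5 to 39.7. Lep was at 0 in all swimming libraries and in combination 1 and 2, and Adipoq was at 0 in swimming 2 and at 10 to 14 counts in combination. Neutrophil markers other than Mmp9 had lower counts in all combination than in all swimming libraries. S100a8 had 134 to 174 counts in swimming and 22 to 23 in combination, and S100a9 609 to 636 and 77 to 96. Mmp9 went the other way, with 2730 to 4935 and 6848 to 7053. Cell cycle genes summed to 1228 to 2040 CPM in swimming and 2450 to 2553 in combination, and the mitochondrially encoded share was 4.36% to 4.87% and 4.86% to 6.10%. In control and curcumin the endothelial sums were 308 to 424 and 302 to 322 CPM, the adipocyte sums 11.8 to 26.3 and 15.6 to 18.6, and the cell cycle sums 799 to 2153 and 2088 to 2181. The part of these cells and states in the glycolysis results was not tested.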

How the data were processed

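Tumour RNA of 12 libraries was measured by sequencing, and groups were taken from the sample titles. The deposited table holds raw read counts and FPKM values per gene. Per the labels' protocols, the authors trimmed reads, aligned them to mm9 with HISAT2 2.0.5 and counted with HTSeq 0.9.1, while the submitters' processing notes name build GRCm39, TopHat2, cutadapt and DESeq 1.30.0. The build is thus given in 2 ways. Gene positions are printed as the table holds them, and 1 of 36 matched members shares its start with a GRCm38 annotation. The deposited FPKM equals count over length and library total for 184877 of 184877 values above 0 (relative tolerance 1e-05). It was used to set genes side by side, and counts for every test. Strand settings of the counting are not stated.

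The low-count filter was filterByExpr with a minimum count of 10 and a minimum total of 15. After TMM scaling, the robust quasi-likelihood method of edgeR 4.0.16 (R 4.3.3) was run on all 12 libraries (8 residual degrees of freedom), with 7 comparisons and Benjamini-Hochberg adjustment over all genes. Marker and list levels are sums of CPM. The values of 1 red cell marker are not reported here. A floor of 3 counts is 0.175 to 0.201 CPM and covers counting error only. All pairs of replicates differed by more than counting noise. The procedure was tested on simulated data. The alternatives tried were a fit of the groups compared only, DESeq2 1.42.0, scaling by RLE, leaving out the filter, a replicate block, combination libraries summed and each library left out, and, added after seeing the data, a fit that is not robust.

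The members and lists were chosen with earlier results of these data known. Values in every library are given for members called in any comparison, the 4 of smallest p in each, and a fixed set (Slc2a1, Hk2, Pfkp, Pgk1, Ldha, Ldhb, Slc16a3, Pkm, Pdk4, G6pdx). Other pathway genes are named where called (at most 3 a comparison) or as the 1 of smallest p.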

Additional observations from a re-analysis of the deposited data

Results flagged for a closer look

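In 5 members the difference between swimming and no swimming pointed one way without curcumin and the other way with it. For Aldoc, G6pdx, Hk2, Pfkp and Pgk1, all 3 swimming libraries were above all 3 control libraries, while all 3 combination libraries were below all 3 curcumin libraries, as held for 0.521% of all genes. The difference between these log2 changes was tested as the interaction in edgeR and did not pass for any of them, with all 12 libraries in the fit. For Pgk1 the change was 0.61 without and -0.38 with curcumin, a difference of -0.99 (adjusted p = 0.0558). For Hk2 it was 0.44 and -0.38, a difference of -0.81 (adjusted p = 0.103). For Aldoc it was 0.40 and -0.26, a difference of -0.66 (adjusted p = 0.126), for Pfkp 0.41 and -0.14, a difference of -0.55 (adjusted p = 0.202), and for G6pdx 0.22 and -0.19, a difference of -0.40 (adjusted p = 0.271).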

How the results depend on the processing

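No called member turned direction over the alternatives in which direction was compared. The fit of the groups compared only and the summed combination libraries were not among these. The median over members stayed within the spread between libraries for every alternative other than leaving out a library. Counts of called genes did depend on the processing, and the cause was not tested except where fewer samples enter by construction.

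DESeq2 called 1 member in curcumin against control, 4 in swimming against control, 6 in combination against control, 4 in combination against curcumin, 19 in combination against swimming, 11 in swimming against curcumin and 5 in the interaction. Over all genes, in that order, it called 76, 311, 1620, 688, 1841, 1015 and 211, where edgeR called 0, 42, 663, 116, 908, 243 and 34. A fit of the groups compared only called 1 member in combination against control, 10 in combination against curcumin, 22 in combination against swimming and 9 in swimming against curcumin, and over all genes 132, 2121, 2707 and 659, with 0 in swimming against control. With the combination libraries summed, 0 members were called in combination against control, against curcumin and against swimming. Over all genes this gave 0 in each of those and in the interaction, 3 in swimming against control and 10 in swimming against curcumin. With RLE scaling and with no low-count filter 0 members were called in combination against curcumin. With no filter 1 member was called in the interaction, and 2 genes over all in curcumin against control. A fit that is not robust called 19 genes in the interaction.

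Replicate numbers did not pair the libraries: the deviations of same-numbered libraries correlated at -0.251 to 0.165, above 0.1 in 2 of 18 pairs. With a replicate block, 0 members were called in combination against curcumin, 9 in combination against swimming and 2 in combination against control. Over all genes the replicate block called 1 in curcumin against control, 4 in swimming against control, 220 in combination against control, 28 in combination against curcumin, 496 in combination against swimming, 57 in swimming against curcumin and 11 in the interaction.

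Leaving out each library in turn gave 0 to 15 members called in swimming against control, 0 to 6 in combination against control, 0 to 7 in combination against curcumin, 0 to 20 in combination against swimming, 0 to 16 in swimming against curcumin, 0 to 12 in the interaction and 0 in curcumin against control. Over all genes the ranges were 0 to 603, 4 to 2182, 3 to 715, 31 to 2697, 9 to 1537 and 0 to 455 in that order, and 0 to 8 in curcumin against control. The upper ends for swimming against control (15), combination against curcumin (7), combination against swimming (20), swimming against curcumin (16) and the interaction (12) came without control 2, and that for combination against control (6) without control 1. The median over members ran from -0.05 to 0.17 in curcumin against control, 0.18 to 0.27 in swimming against control, -0.17 to 0.00 in combination against control, -0.17 to -0.07 in combination against curcumin and 0.17 to 0.26 in swimming against curcumin. The sign of the curcumin median thus depends on which library is left out. The 7 medians past the spread came without control 2, control 3 or curcumin 2. None of the isoform ratios moved by more than its spread, which is wide in control for Ldha to Ldhb. Depth limits the low members, with 11 to 47 counts a library for the short Aldoa model, 21 to 114 for Ldhb, 22 to 464 for Pdk4 and 26 to 57 for Mpc1.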
